A study of Mus musculus with 8 samples.

Results

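The 9 genes described here are listed under synthesis and handling of, breakdown of or response to retinoic acid, the signalling form of vitamin A. They were taken by symbol from a fixed list of names, drawn up with earlier results of these libraries known, and all 9 were found among the 55401 genes of the deposited table. Sequenced RNA came from mouse lung at the embryonic stage E13.5, with 4 libraries from cre controls and 4 from mutants that carried the Tbx4tetOcre transgenes together with the Myrf allele MyrfE6. Tbx4 is a T-box gene of lung mesenchyme, and Myrf encodes a membrane-bound transcription factor that is also expressed in mesothelium, the cell layer covering the lung. What the allele changes, which cells the transgenes act in and what else the controls carried are not stated in the labels, nor are the number and sex of the embryos behind a library. Whether litters were shared is also not stated, and the p-values therefore cover the spread among these 8 libraries, which may be technical in part.

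Retinol is oxidised in steps, first by retinol dehydrogenases such as Rdh10 to retinaldehyde and then by retinaldehyde dehydrogenases such as Aldh1a2 to retinoic acid. Retinoic acid binds nuclear receptors of the RAR family, which pair with RXR receptors on response elements near target genes, and enzymes of the Cyp26 family break it down. In embryonic lung the pathway is known from the outgrowth of the lung bud and from mesothelium, where Aldh1a2 is strongly expressed.

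Total counts were 17799899 to 19032389 in the controls and 17819285 to 48679134 in the mutants, and mutant replicate 2 was the deepest library. Values are CPM (a gene's counts relative to the library's total, on the usual CPM scale, with TMM scaling between libraries) unless named otherwise, and 3 counts corresponded to at most 0.169 CPM, a limit that covers counting error only. Myrf, the targeted gene, lay at 106.9 to 120.5 CPM in the controls and 84.4 to 92.4 CPM in the mutants. The lung genes Nkx2-1, Tbx4 and Sftpc were expressed in all 8 libraries, with Sftpc, the lowest of them, at 65.0 CPM or more. Libraries also differed in sex-linked transcripts. Control replicates 2 and 3 had Xist at 869 and 863 CPM of all counts and at most 0.0562 CPM of the Y-linked genes Ddx3y, Eif2s3y, Kdm5d and Uty, while mutant replicates 1 and 2 had Xist at 0.596 and 0.37 CPM and Y-linked genes at 134 and 144 CPM. The remaining 4, control replicates 1 and 4 and mutant replicates 3 and 4, held both kinds and are called the mixed libraries. Results are also given in these 4 alone.

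Aldh1a1 and Aldh1a7 are near copies that lie side by side on chromosome 19 in opposite orientation, 49488 bases apart. Their promoters are shown because both genes rose together, as described below. Each line gives the 140 bases upstream of a RefSeq start on GRCm38.p6 (for Aldh1a1, the one of its 2 starts that is more like Aldh1a7), read 5′ to 3′ on the strand of the gene, at chr19:20601828-20601967 (plus strand) for Aldh1a1 and chr19:20727557-20727696 (minus strand) for Aldh1a7, with the longest run of identical bases, 65 long, in capitals.
Aldh1a1: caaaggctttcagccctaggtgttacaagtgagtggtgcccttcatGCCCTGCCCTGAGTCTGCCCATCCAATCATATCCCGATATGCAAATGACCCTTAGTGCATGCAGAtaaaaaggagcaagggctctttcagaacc
Aldh1a7: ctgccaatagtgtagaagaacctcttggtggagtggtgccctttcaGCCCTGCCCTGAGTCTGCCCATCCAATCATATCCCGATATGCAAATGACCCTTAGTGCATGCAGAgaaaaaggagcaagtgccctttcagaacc

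Over 250 bases upstream of these starts the pair was 74.5% identical, and over their coding sequences 91.6%. The start of Aldh1a1 was chosen for its likeness, and identity at its other start was not computed. Aldh1a1 shared 70.8% of aligned coding bases with Aldh1a2 and 69.4% with Aldh1a3. Exact stretches of 50 bases common to both transcripts made up 3.06% of the windows of Aldh1a1 and 7.49% of those of Aldh1a7, and at 100 bases 1 window was shared. Per the file headers, the option that counts reads with several places in the genome was not set. The part of cross-mapped reads in the values of Aldh1a1 was not tested.

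For the response genes, Rarb and Cyp26a1 are shown around a direct repeat, the kind of element that RAR and RXR receptors bind. The motif was 2 copies of GNTCA with 6 bases of any kind between them, and capitals mark the copies. It reads forward in Rarb as printed and on the opposite strand in Cyp26a1. The stretches lie at chr14:16575483-16575558 (minus strand) and chr19:37697746-37697807 (plus strand).
Rarb: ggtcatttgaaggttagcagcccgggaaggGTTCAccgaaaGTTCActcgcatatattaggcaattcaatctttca
Cyp26a1: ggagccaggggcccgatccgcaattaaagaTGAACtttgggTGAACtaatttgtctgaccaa

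Both strands of the 250 bases upstream were searched. This repeat was found in 0.776% of the 32851 promoters of the RefSeq table, and in 0.903% of its 27025 genes. The same repeat with 3 bases between the copies was found in 0.889% of all promoters and 1.01% of genes. Among the members the first was found in Rarb and Cyp26a1 alone and the second in none; neither was searched for overlap with the other. Promoters were matched for 8 of the 9 genes; Aldh1a3 was not matched. A match describes letters in a window and not binding.

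Scaled to exon length as TPM, the levels in control lung ranged widely. Aldh1a7 was highest at 203 ± 12.3 TPM, followed by Aldh1a2 at 128 ± 7.93 TPM (SD, n = 4). Crabp1 (32.1 ± 4.98), Dhrs3 (25.3 ± 2.04), Rarb (20.2 ± 1.4) and Cyp26b1 (19.97 ± 0.699) lay in the middle, with Aldh1a1 below them at 10.1 ± 1.37 TPM. Crabp1 overlapped Dhrs3 between libraries, and Rarb overlapped Cyp26b1, so the order within these pairs was not resolved. Aldh1a3 and Cyp26a1, at 0.617 ± 0.196 and 0.264 ± 0.141 TPM, were close to the limit of counting and also overlapped. The exon length of Aldh1a1, 4937 bases, joins the exons of all its annotated transcripts, and a longer sum gives a lower TPM.

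**Figure D1:**
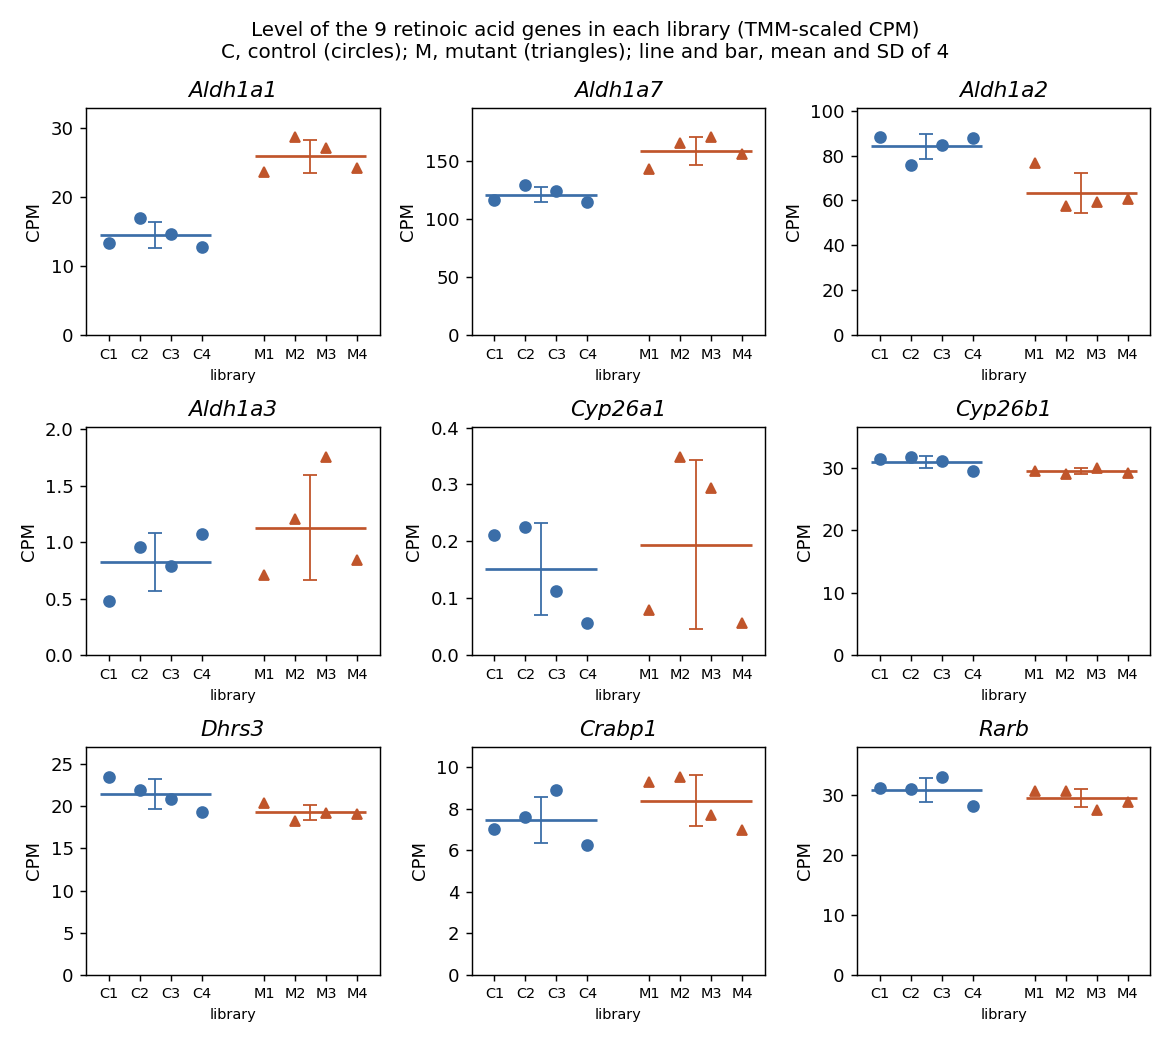
Levels of the 9 genes in each of the 8 libraries, in TMM-scaled CPM on axes that start at 0, with circles for controls C1 to C4, triangles for mutants M1 to M4, and lines and bars for the mean and SD of 4 libraries. Aldh1a1 and Aldh1a7 lay higher in every mutant than in every control, while the groups of the other 7 genes overlapped.

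Mutant and control were compared in edgeR over 15788 genes that passed the low-count filter, with p-values adjusted over all of them. Of all tested genes 1.49% passed an adjusted p of 0.05, 0.564% higher and 0.931% lower in the mutant. Of the 9 retinoic acid genes, 8 could be tested. Among them 2 rose, Aldh1a1 and Aldh1a7, and 0 fell. The remaining 6 did not pass, though Aldh1a2 and Dhrs3 had unadjusted edgeR p-values of 0.00266 and 0.0423. The median log2 fold change of the 8 was 0.06 beside 0.00 over all tested genes. In a separate fit of the mixed libraries, 2 controls against 2 mutants, 3 members passed, the third being Aldh1a2 with a negative fold change. That fit called 87 genes in all. The ranges of the 2 groups were separate in 2 of the 8, both higher in the mutant, where 7.37% of all tested genes had separate ranges, 3.31% higher and 4.06% lower.

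Aldh1a1 oxidises retinaldehyde to retinoic acid and is widely used as a marker of progenitor and airway cells. Its level was 13.4, 17.0, 14.7 and 12.8 CPM in control replicates 1 to 4 and 23.6, 28.6, 27.1 and 24.3 CPM in mutant replicates 1 to 4. The lowest mutant lay above the highest control. The mean rose from 14.5 ± 1.87 to 25.9 ± 2.38 CPM, a fold change of 1.80 (95% interval 1.58 to 2.04, log2 fold change 0.84, SE 0.0888, edgeR adjusted p = 6.18e-05). Aldh1a1 (ENSMUSG00000053279.8) lies on chromosome 19 from 20492715 to 20643465 on the plus strand of GRCm38.

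Aldh1a7, the copy next to it, was the more abundant of the pair and rose by a smaller factor. It measured 116, 129, 124 and 115 CPM in control replicates 1 to 4 and 143, 166, 171 and 156 CPM in mutant replicates 1 to 4, again without overlap. The mean rose from 121 ± 6.6 to 159 ± 12.1 CPM, a fold change of 1.31 (95% interval 1.21 to 1.42, log2 fold change 0.39, SE 0.0529, edgeR adjusted p = 0.00175). Aldh1a7 (ENSMUSG00000024747.3) spans positions 20692953 to 20727562 of the same chromosome on the minus strand. In the mutants the 2 genes moved unequally: the ratio of Aldh1a7 to Aldh1a1 CPM was 7.58 to 8.99 in the controls and 5.78 to 6.45 in the mutants.

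In the mixed libraries the rise of both genes was at least as large. The log2 fold changes in edgeR were 0.98 (SE 0.103, adjusted p = 0.00105) for Aldh1a1 and 0.50 (SE 0.0556, adjusted p = 0.00105) for Aldh1a7. Counted as 1 gene, their sum had a log2 fold change of 0.45 (SE 0.0558, edgeR adjusted p = 0.00126), and both genes and their sum passed in all 17 alternatives to the fit. Without each library in turn the log2 fold change stayed between 0.79 and 0.93 for Aldh1a1 and between 0.36 and 0.44 for Aldh1a7.

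Aldh1a1 and Aldh1a7 share a chromosome with the targeted gene. They start 10.3 and 10.5 Mb (megabases) from the start of Myrf, and Cyp26a1 27.5 Mb from it. Among the 57 tested genes that start between Myrf and Aldh1a7, 2 passed (3.51%), Aldh1a1 higher and Ms4a6c lower. The share was 1.67% of the 538 tested genes of chromosome 19 and 1.49% on the other chromosomes. Aldh1a1 itself counts in the first share, and Myrf, Aldh1a1 and Aldh1a7 count in that of chromosome 19. Neither share is therefore a separate result about the region. Within 1 Mb of the pair 6 genes were tested. Besides the pair itself none passed, but Anxa1, which encodes the phospholipid-binding protein annexin A1, had no overlap between groups. Anxa1 measured 17.4, 21.5, 20.7 and 19.8 CPM in the controls and 27.7, 37.6, 27.8 and 25.3 CPM in the mutants (log2 fold change 0.59, SE 0.125, edgeR adjusted p = 0.0526). Its call turned on the settings: it passed in 8 of 17 alternatives, among them DESeq2, the mixed libraries (edgeR adjusted p = 0.0367) and those without mutant replicate 2 or 4, and the adjusted p reached 0.215 at most. The other 3 neighbours, Zfand5, 1110059E24Rik and Abhd17b, had log2 fold changes of -0.04, 0.00 and -0.09. Whether the sequence around the Myrf allele differed between the groups cannot be told from gene counts, and its part in these values was not tested.

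**Figure D2:**
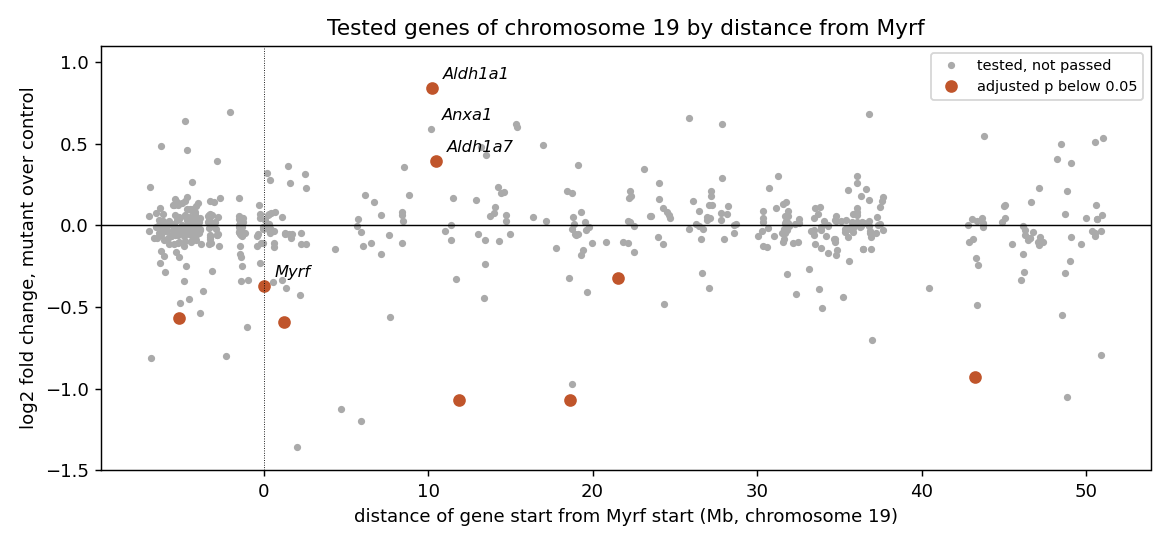
Log2 fold change of each tested gene of chromosome 19 against the distance of its start from that of Myrf in Mb, with orange points for genes past an adjusted p of 0.05. Aldh1a1, Aldh1a7 and Anxa1 lie together above 0 at 10 Mb, and most genes around them lie near 0. Trpm3, at 11.9 Mb, passed at -1.07. Of the 9 genes past the threshold on this chromosome 2 were higher and 7 lower.

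Aldh1a2, the retinaldehyde dehydrogenase of mesothelium, pointed the other way but did not pass the test. Its level was 88.1, 75.9, 84.7 and 87.7 CPM in control replicates 1 to 4 and 76.7, 57.7, 59.1 and 60.4 CPM in mutant replicates 1 to 4. Mutant replicate 1 lay within the control range, and the other 3 mutants lay below every control. The log2 fold change was -0.41 (SE 0.0963, 95% interval -0.63 to -0.19, edgeR adjusted p = 0.0871), with Aldh1a2 (ENSMUSG00000013584.5) on chromosome 9 from 71215789 to 71296243 on the plus strand. The call turned on single choices: the adjusted p was 3.34e-05 without mutant replicate 1 and 0.00105 in the mixed libraries, and it ranged from 3.34e-05 to 0.235 over 17 alternatives, 6 of which passed.

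The low values of Aldh1a2 stood beside low values of mesothelial markers. Of 15 listed mesothelium genes 5 fell (Upk3b, Wt1, Lrrn4, Gpm6a and Myrf itself), 0 rose and 10 did not pass. Of all tested genes 0.931% fell and 0.564% rose. The median log2 fold change was -0.37, which is the value of Myrf, the targeted gene. Their summed level was 601 to 634 CPM in the controls and 489 to 548 CPM in the mutants. The 14 markers other than Myrf summed to 486 to 513 and 405 to 456 CPM. This list and its direction were known from earlier results of the same libraries. The calls of Upk3b, Wt1 and Myrf held in all 17 alternatives. That of Lrrn4 was lost in 6, with the Y-linked covariate, without control replicate 1, 2 or 3, without mutant replicate 2 and in the mixed libraries (edgeR adjusted p = 0.219), and that of Gpm6a in the mixed libraries (edgeR adjusted p = 0.114). Upk3b, a uroplakin of the mesothelial surface, lay at 53.0 to 61.2 CPM in the mutants against 85.5 to 93.2 CPM in the controls. Wt1, a mesothelial transcription factor, lay at 10.8 to 14.2 against 17.5 to 20.7 CPM. In RNA of bulk lung, fewer mesothelial cells and less RNA per cell cannot be told apart.

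Set against 5 mesothelial markers (Upk3b, Wt1, Lrrn4, Gpm6a and Nkain4) in the same library, the level of Aldh1a2 did not separate the groups. The 5 include every listed marker other than Myrf that fell, and lower marker levels raise the ratio. The log2 ratio was -1.07, -1.24, -1.16 and -1.07 for the controls in order of replicate, and -0.88, -1.18, -1.18 and -1.12 for the mutants. The means were -1.13 ± 0.0813 and -1.09 ± 0.141 (SD, n = 4), a difference of 0.04 with p = 0.686 in a two-sided exact permutation test whose smallest possible p was 0.0286. Mutant replicate 1 had the highest ratio: its markers summed to 142 CPM, near the 131 to 134 CPM of the other mutants and below the 179 to 189 CPM of the controls. The sign of the difference depended on the markers, at -0.19 with Lrrn4, Gpm6a and Nkain4 alone (p = 0.143) and -0.17 with all 14 markers other than Myrf (p = 0.0857, exact permutation tests). With the 14, mutant replicates 2 to 4 (-2.81, -2.84 and -2.75) lay below the lowest control (-2.68), and mutant replicate 1 (-2.57) did not. The result with 5 markers thus rests on their choice.

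**Figure D3:**
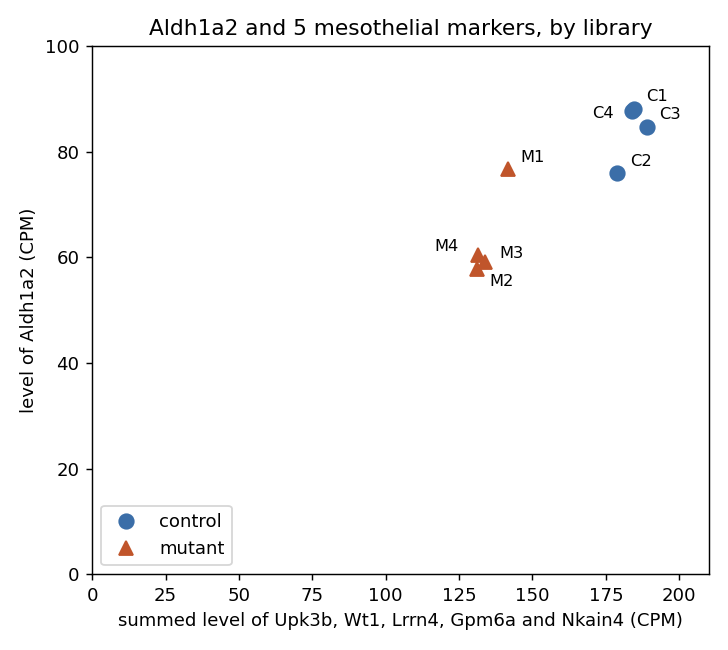
Level of Aldh1a2 against the summed level of 5 mesothelial markers in each library, both in CPM on axes that start at 0, with circles for controls and triangles for mutants. All mutants lie at lower marker levels than the controls, and mutant replicate 1 (M1) has Aldh1a2 at the control level of 76 to 88 CPM.

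Aldh1a3, another retinaldehyde dehydrogenase, was barely expressed, with 9 to 59 counts per library. It measured 0.475, 0.958, 0.791 and 1.07 CPM in control replicates and 0.71, 1.21, 1.76 and 0.844 CPM in mutant replicates 1 to 4. The groups overlapped, and the interval of its log2 fold change, -0.19 to 1.12, was the widest of the members tested. As a share of the summed TPM of the 4 Aldh1a genes, Aldh1a2 made up 33.6% to 39.8% in the controls and 22.8% to 31.4% in the mutants. Aldh1a7 made up 57.3% to 62.7% and 64.1% to 72.1%, and Aldh1a1 2.67% to 3.46% and 4.42% to 5.19%. The mixture of Aldh1a transcripts thus held less Aldh1a2 in each mutant than in each control, and these shares are not independent of one another. They are shares of RNA, and whether each enzyme, Aldh1a7 among them, makes retinoic acid was not tested.

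The breakdown enzymes showed no change that passed. Cyp26b1 lay at 31.4, 31.7, 31.1 and 29.5 CPM in control replicates and 29.5, 29.0, 30.01 and 29.2 CPM in mutant replicates 1 to 4. All mutants lay below 3 of the controls and around the fourth. The log2 fold change was -0.07 (SE 0.052, edgeR adjusted p = 0.593), with a 95% interval of the fold change of 0.882 to 1.03. Cyp26a1, the other enzyme and a strongly induced target of retinoic acid, had 1 to 4 counts per control library and 1 to 17 per mutant library. It did not pass the low-count filter and was not tested; its 17 counts came from mutant replicate 2, the deepest library, at 0.348 CPM.

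Dhrs3 reduces retinaldehyde back to retinol and is itself induced by retinoic acid. It measured 23.5, 21.9, 20.9 and 19.3 CPM in control replicates and 20.4, 18.3, 19.2 and 19.1 CPM in mutant replicates 1 to 4. All mutants lay below control replicates 1 to 3, and mutant replicate 1 lay above control replicate 4, with a log2 fold change of -0.16 (95% interval -0.30 to -0.01) that did not pass over all genes (edgeR adjusted p = 0.338). Crabp1, a cytoplasmic carrier of retinoic acid, measured 7.02, 7.61, 8.92 and 6.26 CPM in control replicates and 9.31, 9.55, 7.71 and 6.98 CPM in mutant replicates 1 to 4. Its mutant replicates 1 and 2 were the highest of all 8 libraries, and the log2 fold change of 0.19 had an interval of -0.07 to 0.45 (edgeR adjusted p = 0.539).

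Rarb, a retinoic acid receptor whose promoter carries the repeat shown above, is a common readout of the pathway. Its level was 31.1, 31.0, 33.0 and 28.1 CPM in control replicates and 30.7, 30.6, 27.5 and 28.9 CPM in mutant replicates 1 to 4. The groups overlapped over most of their range. The log2 fold change was -0.06 (SE 0.061, edgeR adjusted p = 0.714), with a 95% interval of the fold change of 0.875 to 1.05. Exons of Rarb overlap 2 genes on the other strand, Top2b and Gm48162, and the counting used strand.

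The rest of the pathway was followed in 3 lists with 78 genes in all, of which 60 were tested. Of these 5 passed, 2 higher and 3 lower, where 1.49% of all tested genes passed, 0.564% higher and 0.931% lower. The lists were chosen with earlier results of these libraries known, and the counts may reflect that choice. Of 20 tested genes of retinoid uptake, storage and conversion 1 fell, 0 rose and 19 did not pass, with a median log2 fold change of 0.06. The gene that fell was Rdh10, the main retinol dehydrogenase of the embryo, which supplies retinaldehyde to the Aldh1a enzymes. Rdh10 gave 38.5, 36.1, 36.8 and 38.2 CPM in the controls, against 32.1, 30.5, 30.5 and 28.6 CPM in the mutants. No mutant reached a control, and the log2 fold change was -0.30 (SE 0.0521, edgeR adjusted p = 0.00673). Among the mixed libraries it was -0.37 (edgeR adjusted p = 0.0539), the 1 alternative of 17 in which the call was lost.

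Other genes of this list had high levels and did not pass. Adh1, an alcohol dehydrogenase that can oxidise retinol, averaged 193 ± 15.01 CPM in the controls and 219 ± 32.4 CPM in the mutants (log2 fold change 0.19, edgeR adjusted p = 0.547). Adh5, a dehydrogenase of general metabolism, had a log2 fold change of -0.01. Rdh7 had 0 counts in every library.

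Of 18 tested receptors, carriers and cofactors 1 fell, 0 rose and 17 did not pass (median log2 fold change -0.04). The gene that fell was Tbl1xr1, a subunit of the corepressor complex that nuclear receptors recruit. It lay between 82.3 and 92.2 CPM in the controls and between 72.8 and 80.6 CPM in the mutants (log2 fold change -0.19, SE 0.0449, edgeR adjusted p = 0.041). This call was lost in 8 of 17 alternatives, among them those without control replicate 1, 2 or 3 and without mutant replicate 1 or 2, where the adjusted p reached at most 0.666 over all alternatives. The receptor genes Rara and Rarg had log2 fold changes of 0.02 and 0.01, and their partner Rxrb -0.04. The histone deacetylase gene Hdac3, also of the corepressor complex, had 0.03.

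Of 22 tested response genes 2 rose, 1 fell and 19 did not pass, with a median log2 fold change of -0.05. Tshz1, a zinc-finger transcription factor, fell from 101.7 ± 6.35 to 78.5 ± 7.04 CPM (SD, n = 4). Its controls read 105, 94.4, 98.6 and 108.5 CPM and its mutants 86.0, 70.9, 74.5 and 82.7 CPM, without overlap (log2 fold change -0.38, SE 0.0619, edgeR adjusted p = 0.00943), and the call held in all 17 alternatives. Foxa1, a forkhead factor of airway epithelium, rose. It measured 70.8, 66.2, 66.6 and 67.7 CPM in control replicates and 77.8, 84.0, 84.1 and 78.2 CPM in mutant replicates 1 to 4 (log2 fold change 0.26, SE 0.0423, edgeR adjusted p = 0.00417).

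Ret encodes a receptor tyrosine kinase of developing neurons. Its controls averaged 12.9 ± 1.53 CPM and its mutants 16.7 ± 1.48 CPM, without overlap, and it rose too (log2 fold change 0.37, SE 0.0895, edgeR adjusted p = 0.0453). The call of Foxa1 was lost with the Y-linked level as a covariate (adjusted p = 0.073) and in the mixed libraries (adjusted p = 0.17). That of Ret was lost in 8 of 17 alternatives, among them those without control replicate 1, 3 or 4 and without mutant replicate 2 or 3, with adjusted p-values of up to 0.145 in edgeR. Markers of the cells that express Foxa1 and Ret are given here as summed levels. The 10 lung epithelium markers summed to 1027 to 1094 CPM in the controls and 1089 to 1133 CPM in the mutants. Among them 1 rose, and 5 reached an unadjusted edgeR p below 0.05 in either direction. The sign of the log2 fold change was positive in 8, and its median was 0.10. The 11 nerve and neural crest markers summed to 126 to 157 and 120 to 153 CPM. Of their 10 tested genes 1 rose, and 4 reached an unadjusted edgeR p below 0.05 in either direction. Their sign was positive in 7, and their median log2 fold change was 0.47, above the 0.37 of Ret. Of all tested genes 0.564% rose, and the share with an unadjusted p below 0.05 is not given here. The part of either list in these results was not tested. The Hox genes Hoxa5 and Hoxb5 and the zinc-finger gene Zfp503, the most abundant genes of the list that did not pass, had log2 fold changes of -0.12, 0.02 and 0.02.

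**Figure D4:**
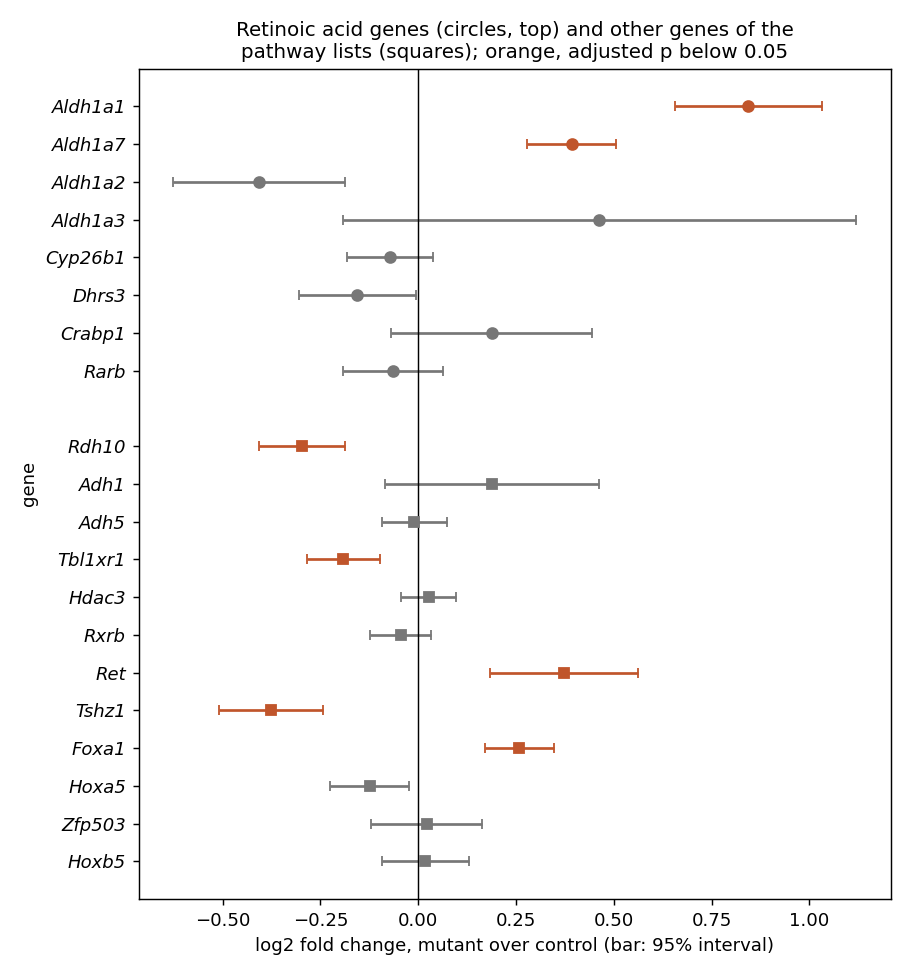
Log2 fold change, mutant over control, with its 95% interval for the 8 tested retinoic acid genes (circles) and the named genes of the 3 pathway lists (squares), orange where the adjusted p was below 0.05. Aldh1a1, at 0.84, lies farthest from 0, Aldh1a2 and Rdh10 lie below 0, and the interval of Rarb covers 0.

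For the members that passed and for Aldh1a2, the genes most alike in pattern were those with the smallest root mean square difference in log2 CPM over the 8 libraries, each gene centred on its mean. For Aldh1a1 they were Ccno, a cyclin of multiciliated cells (0.126), Astn2 (0.137) and Bmp3, a ligand of the BMP family (0.145). For Aldh1a7 they were Fbln5, an elastic fibre gene (0.0417), the claudin gene Cldn10 (0.058) and the protease gene Htra1 (0.0606). For Aldh1a2 they were Crb2 (0.0753), Wnt2, a mesenchymal ligand (0.0776), and Tshz1 (0.0796), described above. Because likeness was measured over these same 8 libraries, the choice itself fixes a sign and size close to the member's, and their fold changes are no separate result.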

How the data were processed

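The authors deposited 1 table of raw counts of read pairs per gene, without normalization, for 4 control and 4 mutant lung libraries (stranded mRNA preparation, per the labels' protocols). Per the file headers, featureCounts 1.6.4 summed exons of GENCODE vM25 with strand option 2 and no option for reads with several mapping places. The submitters' processing notes name GRCm38 (mm10), DESeq2 and STAR, the last without a version. No library repeated another: pairs within a group differed by 2.92 to 8.45 times the sampling variance.

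Symbols were found for 55141 of 55401 genes. All 8 libraries entered 1 fit in edgeR 4.0.16 (R 4.3.3): expression filter (15788 genes, 99.9% of counts), TMM scaling, robust quasi-likelihood F test (two-sided), Benjamini-Hochberg adjustment over all genes tested, threshold 0.05. TPM used the deposited exon lengths. Promoters came from RefSeq (GRCm38.p6). Transcripts, for coding sequences and shared windows, came from an earlier GENCODE release than the vM25 of the counts. The edgeR fit was tested on simulated counts, and the exact permutation test on 1 made-up set of values. The other steps were not tested in this way.

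Members and lists were chosen with earlier results of these data known. Named were all members, changed genes of the 3 pathway lists and the 3 most abundant others in each (some are not reported here), changed mesothelium markers, changed neighbours of Aldh1a7, and the 3 most alike genes per changed member and Aldh1a2. Anxa1 and its neighbours, Ms4a6c, Trpm3, Rara, Rarg and Rdh7 were named after their values were seen. Alternatives used RLE scaling, DESeq2 1.42.0, limma-voom (limma 3.58.1), other filters, a replicate block, a Y-linked covariate and left-out libraries.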

Additional observations from a re-analysis of the deposited data

Results flagged for a closer look

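The level of Aldh1a2 in mutant replicate 1, 76.7 CPM, stood apart from the other 3 mutants, which lay at 57.7 to 60.4 CPM: the gap was 0.857 of the group's whole range, above the 95% limit of Dixon's test for 4 samples. It was the 1 case among 20 groups of libraries examined, and chance gives about 1 in 20.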

How the results depend on the processing

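Aldh1a1, Aldh1a7 and their sum kept direction and call in all 17 alternatives; the 6 tested members that did not pass kept their sign (Aldh1a3 had no value under the CPM minimum), and the count of members called was 2 or 3, with Aldh1a2 as the added one. The count over all genes (236) was 380 with DESeq2, 791 with no low-count filter, 142 without robust estimation, 95 with the Y-linked level as a covariate, 87 in the 4 mixed libraries alone (an alternative chosen after the data were seen) and 96 (without control replicate 3) to 479 (without mutant replicate 4) without each library in turn, with 100, 121 and 118 without control replicates 1 and 2 and mutant replicate 2. Its split of higher against lower calls, 89 to 147, became 52 to 43 with the covariate, 55 to 32 in the mixed libraries and 49 to 47 without control replicate 3. With the replicate block the count over all genes was 541, and Aldh1a2 passed (edgeR adjusted p = 0.000923). The labels state no pairing. Deviations of same-numbered libraries correlated at 0.0811, 0.0648 and 0.181 for replicates 1 to 3. Each lay above the highest value of that control with another mutant (0.0213, 0.00485 and 0.0226). Values of the same mutant with other controls were not compared. For replicate 4 the correlation was 0.0125, below 0.133 with another mutant. Whether libraries were paired was not tested. The count over the 3 pathway lists (5) was 10, 3, 2 and 1 with no filter, without robust estimation, with the Y-linked covariate and in those 4 libraries, 8 with the replicate block and 3 (control replicates 1 and 3, mutant replicate 2) to 6 without each library in turn. The count between Myrf and Aldh1a7 (2) was 4 with limma-voom, 8 with no filter and 1 (control replicates 1, 3 and 4, mutant replicates 1 and 3) to 7 (mutant replicate 4) without each library in turn. The ratio of Aldh1a2 to mesothelial markers changed sign with 3 markers (-0.19) and with all markers other than Myrf (-0.17), and was -0.0282 (without mutant replicate 1) to 0.0713 without each library in turn. Signs also changed for genes near 0 that never passed. Adh5 was 0.0052 with no filter and -0.0377 to 0.0125 without each library in turn, where Zfp503 spanned -0.0322 to 0.0729 and Hoxb5 -0.0065 to 0.0713. With the Y-linked covariate Zfp503 and Hoxb5 were -0.0382 and -0.0336, and in those 4 libraries Hdac3, Rxrb, Zfp503 and Hoxb5 were -0.0205, 0.0006001, -0.0522 and -0.0103. The cause of these changes was not tested. Leaving out libraries also leaves fewer samples. Depth limited Cyp26a1, with at most 17 counts, and Aldh1a3.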
